A study of Lactuca sativa with 9 samples.

Results

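The photoreceptor genes of lettuce leaves were taken from the gene table by their descriptions, as rows that name a phytochrome, a cryptochrome or a phototropin. Rows that also name an interacting or associated protein, a phytochromobilin enzyme or a cytochrome were left out. The rule found 7 of 35342 genes, and 1 further row with such a word, phytochrome interacting factor 1, was left out. Of the 7 genes, 2 were described as phytochromes, 3 as cryptochromes and 2 as phytochrome kinase substrates, which are signaling proteins and not photoreceptors. No row was described as a phototropin, so the blue-light receptors of that name could not be described under this rule. All 7 genes were found in the RefSeq gene table, where they are protein coding.

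Leaves of the cultivar Hong Kong Glass were harvested 24 d after emergence from plants grown at 3 light intensities, with 3 libraries per group and 9 in all. Las_WL received 60, Las_ML 175 and Las_SL 340 µmol of photons per square metre per second (low, medium and high light). The opening of the paper's results exchanges the intensities of Las_SL and Las_WL, and the sample labels were followed here. Each sample was a mix of cut leaves taken during the light period, and the hour of harvest is not given in the sources used here. The paper describes removal of rRNA and digestion of linear RNA with RNase R, whereas the sample labels describe selection of polyadenylated RNA. If the digestion was made, the values rest on the linear RNA that was left. In bulk leaf RNA, fewer cells of a type and less RNA per cell cannot be told apart.

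Plants sense light through a small number of pigment proteins. Phytochromes carry a bilin pigment and switch between a red-absorbing and a far-red-absorbing form. In *Arabidopsis thaliana*, phytochrome A is unstable in the light and acts in far-red and very weak light, while phytochrome B is stable in the light and governs red-light responses and shade avoidance. Cryptochromes bind a flavin and sense blue light, and cryptochrome 1 acts at high blue-light intensities in that species. Phytochrome kinase substrates are plasma membrane proteins that act with phytochromes and phototropins in bending and leaf positioning in *Arabidopsis*.

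Gene levels were given as FPKM, fragments scaled to transcript length and to all mapped fragments, and were set side by side between genes on this scale. If linear RNA was digested, the scaling to length does not correct for a loss that differs between transcripts. The 2 expressed cryptochrome genes had the highest levels of the 7 genes. LOC111921254, described as a cryptochrome C-terminal protein, had a mean of 109.3 FPKM over the 9 libraries, above 97.2% of the 26145 genes that passed a filter on low values (mean FPKM 0.5 or more). LOC111909309, described as cryptochrome 1b, followed with 51.3 FPKM. The phytochrome genes had 23.7 FPKM (LOC111896415, phytochrome a) and 17.65 FPKM (LOC111911925, phytochrome b). The phytochrome kinase substrate genes had 16.1 FPKM (LOC111888481, 3-like) and 10.9 FPKM (LOC111896059, 2-like). The order of the cryptochromes was the same in 9 of 9 libraries, and both lay above every other member in each of them. Phytochrome a was above phytochrome b in 6 of 9 libraries. The third cryptochrome gene, LOC111895114, was listed at 0 in 6 libraries and at 0.0472, 0.0375 and 0.0482 FPKM in Las_SL replicate 2, Las_ML replicate 1 and Las_WL replicate 1, and was not tested.

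The values per library show a different course for the receptors. Phytochrome a (LOC111896415) read 26.3, 36.2 and 23.7 FPKM at high light, 25.6, 23.6 and 23.8 FPKM at medium light and 16.2, 21.3 and 16.9 FPKM at low light. No Las_WL library reached the lowest value of Las_SL or Las_ML, while Las_SL and Las_ML overlapped. The group means ± SD (n = 3) were 28.7 ± 6.57 FPKM for Las_SL, 24.3 ± 1.07 for Las_ML and 18.1 ± 2.76 for Las_WL.

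Phytochrome b (LOC111911925) took the opposite order, with 16.3, 11.4 and 15.5 FPKM at high light, 14.5, 17.6 and 18.75 FPKM at medium light and 18.1, 22.8 and 23.9 FPKM at low light. The lowest Las_WL value exceeded the highest Las_SL value, and Las_ML overlapped both groups. Its means were 14.4 ± 2.66 FPKM for Las_SL, 17.0 ± 2.18 for Las_ML and 21.6 ± 3.07 for Las_WL.

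LOC111921254, the highest of the 7 genes by mean level, read 114.4, 152.3 and 118.0 FPKM at high light, 117.1, 124.8 and 106.8 FPKM at medium light and 49.5, 101.1 and 99.6 FPKM at low light. The 3 lowest libraries were those of Las_WL, and Las_WL replicate 1 was the lowest by a wide margin. The means were 128.2 ± 20.9 FPKM for Las_SL, 116.2 ± 9.05 for Las_ML and 83.4 ± 29.4 for Las_WL.

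Cryptochrome 1b (LOC111909309) read 55.7, 72.5 and 60.7 FPKM at high light, 56.3, 52.3 and 48.6 FPKM at medium light and 22.0, 49.85 and 43.8 FPKM at low light. The Las_WL libraries were below all Las_SL libraries but overlapped Las_ML, whose lowest library had a lower value than Las_WL replicate 2. The means were 63.0 ± 8.65, 52.4 ± 3.84 and 38.5 ± 14.7 FPKM for Las_SL, Las_ML and Las_WL.

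Of the phytochrome kinase substrate genes, LOC111896059 (2-like) read 11.6, 11.3 and 13.65 FPKM at high light, 12.2, 9.32 and 15.1 FPKM at medium light and 5.93, 10.9 and 8.48 FPKM at low light, so that Las_WL lay below Las_SL and overlapped Las_ML. LOC111888481 (3-like) read 18.4, 14.8 and 13.7 FPKM at high light, 15.9, 20.8 and 15.1 FPKM at medium light and 4.83, 21.6 and 20.1 FPKM at low light. Its Las_WL libraries held both the lowest and the highest values of all 9, with a mean of 15.5 ± 9.29 FPKM.

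**Figure D1:**
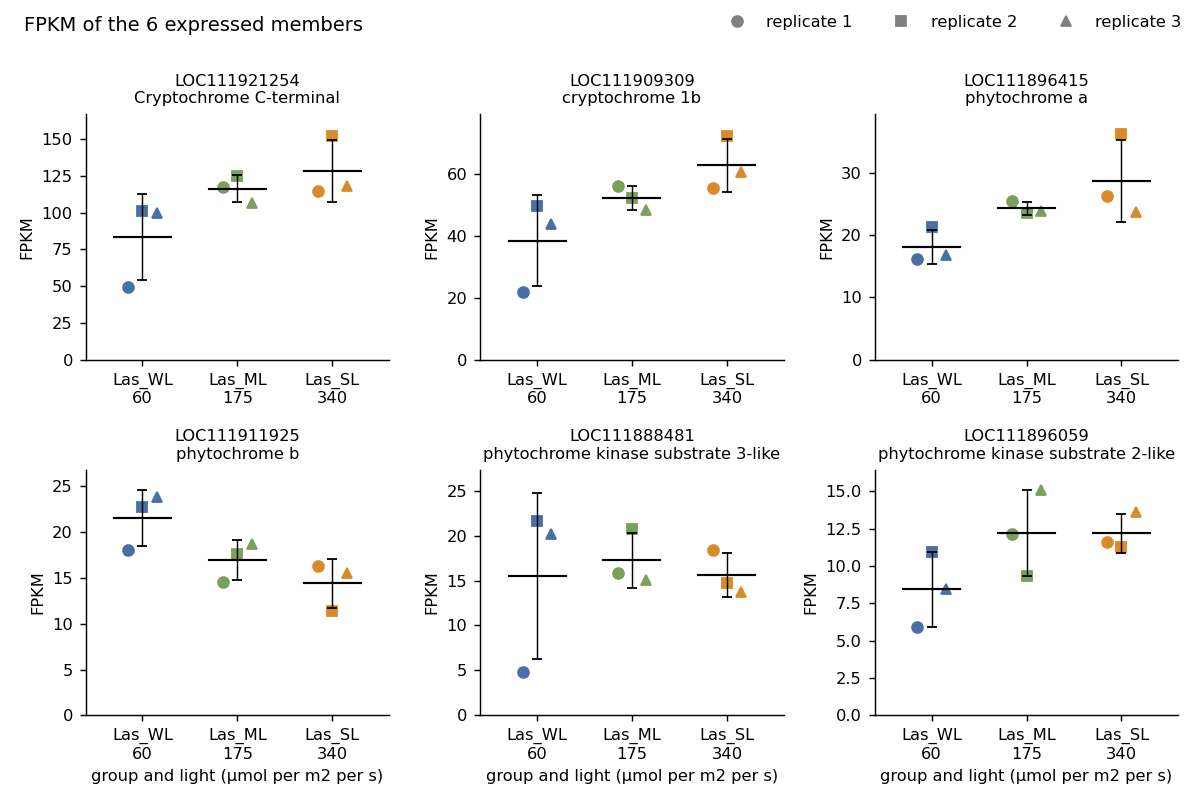
FPKM of the 6 expressed genes by group, with the light intensity in µmol per square metre per second below each group name. Points are libraries with a marker for each replicate number, and bars are the mean and SD of 3 libraries. Phytochrome a and LOC111921254 are lowest in the 3 Las_WL libraries, phytochrome b is higher in these than in the Las_SL libraries, and Las_WL replicate 1 stands far below its group for both cryptochromes and for LOC111888481.

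The levels were compared with limma on log2(FPKM + 1), a scale that understates the change of low genes, with p-values adjusted by the Benjamini-Hochberg method over all 26145 genes tested. Of the 7 genes, 6 passed the filter on low values. In the Las_SL vs. Las_ML comparison 0 of the 6 had an adjusted p below 0.05 and 0 had an unadjusted p below 0.05, where 0.00382% and 5.52% of all tested genes did. None of the 6 had groups without overlap, against 14.5% of all genes that lay higher and 4.20% that lay lower in every Las_SL library. The log2 differences ranged from -0.23 for phytochrome b (LOC111911925) to 0.25 for cryptochrome 1b (LOC111909309), with 95% intervals of -0.66 to 0.20 and of -0.41 to 0.92. The interval for LOC111888481, from -1.22 to 0.96, was the widest of the 6. Without Las_SL replicate 2 the differences were smaller, at -0.08 for phytochrome b, 0.15 for cryptochrome 1b, 0.04 in place of 0.21 for phytochrome a (LOC111896415) and 0.00 in place of 0.13 for LOC111921254.

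In the Las_WL vs. Las_ML comparison 0 of the 6 had an adjusted or an unadjusted p below 0.05 in limma, and the shares of all tested genes were 0.00% and 13.8%. Phytochrome a (LOC111896415) and LOC111921254 lay lower in every Las_WL library than in every Las_ML library, as 18.2% of all tested genes did, and none of the 6 lay higher throughout, as 1.47% of all genes did. The other 5 differences were negative, between -0.36 and -0.54 on the log2 scale, while that of phytochrome b (LOC111911925) was 0.33 with a standard error of 0.187 and a 95% interval of -0.10 to 0.76. The median of all tested genes was -0.134 in this comparison, so that relative to it phytochrome b differed by 0.46, phytochrome a by -0.28 and LOC111921254 by -0.41. Without Las_WL replicate 1, a library that stood apart, the differences of LOC111921254 and cryptochrome 1b (LOC111909309) were -0.21 and -0.16 in place of -0.54 and -0.51. The median of all tested genes was then -0.259, and relative to it LOC111921254 differed by 0.05, cryptochrome 1b by 0.10, phytochrome a by -0.08 and phytochrome b by 0.70.

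The Las_SL vs. Las_WL comparison set the highest against the lowest intensity. After adjustment 0 of the 6 genes had a limma p below 0.05, while 5.94% of all tested genes did. Unadjusted, 4 of the 6 were below 0.05, with 26.3% of all tested genes. Phytochrome a (LOC111896415), LOC111921254, cryptochrome 1b (LOC111909309) and LOC111896059 lay higher in every Las_SL than in every Las_WL library, as 27.2% of all genes did. Phytochrome b (LOC111911925) lay lower in every Las_SL library, as 2.89% of all genes did.

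The difference of phytochrome a (LOC111896415) in this comparison was 0.63 on the log2(FPKM + 1) scale (standard error 0.185, 95% interval 0.20 to 1.05, limma adjusted p = 0.0793), a ratio of 1.54. That of phytochrome b (LOC111911925) was -0.56 (standard error 0.187, interval -0.99 to -0.13, adjusted p = 0.107). LOC111921254 had 0.67 with an adjusted p of 0.178, and cryptochrome 1b (LOC111909309) had 0.77 with an adjusted p of 0.138. LOC111896059 and LOC111888481 had 0.51 and 0.23, with adjusted p-values of 0.219 and 0.832. The median of all tested genes was 0.184, so that most genes read higher in Las_SL than in Las_WL. Relative to this median phytochrome b differed by -0.74, cryptochrome 1b by 0.58, LOC111921254 by 0.49 and phytochrome a by 0.44. The directions of these genes between Las_SL and Las_WL were the same after quantile normalization and after rescaling without the 10 highest genes.

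**Figure D2:**
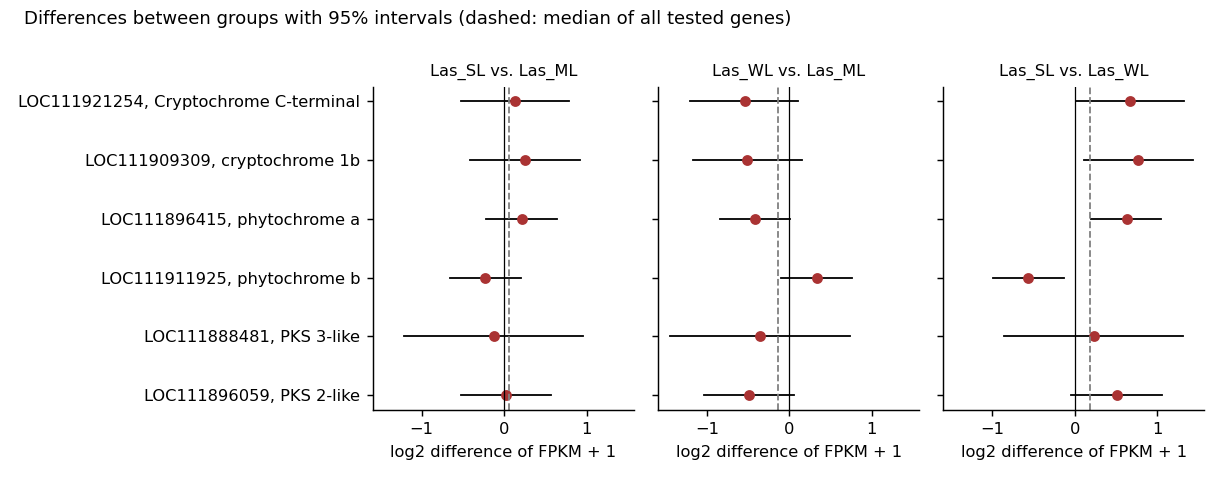
Differences between groups on the log2(FPKM + 1) scale from limma, with 95% intervals as lines, for the 6 tested genes in the 3 comparisons. The dashed line is the median of all tested genes (0.052, -0.134 and 0.184 from left to right). The intervals of phytochrome a, phytochrome b and both cryptochromes lie off 0 in Las_SL vs. Las_WL before adjustment, and phytochrome b is the only 1 of them on the negative side.

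Las_WL replicate 1 stood apart from the other libraries. Over all tested genes its mean correlation with its own group was 0.807, against 0.875 to 0.958 for the other 8. The summed FPKM of 60 histone and MCM genes, which mark dividing cells and of which 55 passed the filter, was 11916 in this library and 987.1 to 3690 in the others, with 1166 and 987.1 in Las_WL replicates 2 and 3. As markers of mesophyll, 29 light-harvesting and Rubisco small subunit genes were taken. Their summed FPKM was 10624 in this library and 27429 and 22865 in Las_WL replicates 2 and 3. The sums were 11188 to 15442 in Las_SL and 13268 to 23588 in Las_ML. Genes matched by the words for vascular tissue summed to 63.6 FPKM in Las_WL replicate 1 and 86.6 to 115 in the other libraries. The 3 genes for Casparian strip proteins of roots summed to 0.750 to 1.39 over the 9 libraries. Between groups the marker lists did not share a direction. In Las_SL vs. Las_WL the tested mesophyll genes had a median log2 difference of -0.47, with 2 of 25 called lower. The tested genes for vascular tissue had a median of 0.39, with 1 of 23 called higher. For the tested genes of dividing cells the median was -0.01, with 0 of 55 called. Among all tested genes 5.94% were called, and the median was 0.184. Whether a list followed the amount of a cell type or the light was not tested. The part of these marker differences in the results on photoreceptors was also not tested.

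Without Las_WL replicate 1, the difference of phytochrome b (LOC111911925) between Las_SL and Las_WL was -0.67 with a limma adjusted p of 0.0383. It then belonged to the 1.98% of all tested genes that were called lower in Las_SL. In either direction, 5652 of 26145 tested genes were called under this setting. Of the 17 alternatives, leaving out this library was the only 1 in which phytochrome b passed the adjusted threshold. The difference of phytochrome a (LOC111896415) was 0.55 without this library, that of LOC111921254 was 0.34, that of cryptochrome 1b (LOC111909309) was 0.41 and that of LOC111896059 was 0.31, while LOC111888481 turned from 0.23 to -0.40, all with adjusted p-values above 0.05. The median of all tested genes rose to 0.322 without it. Relative to this median, LOC111921254 differed by 0.02, cryptochrome 1b by 0.09 and phytochrome a by 0.23, so that both cryptochromes lay near the median of all genes, and phytochrome b differed by -1.0.

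**Figure D3:**
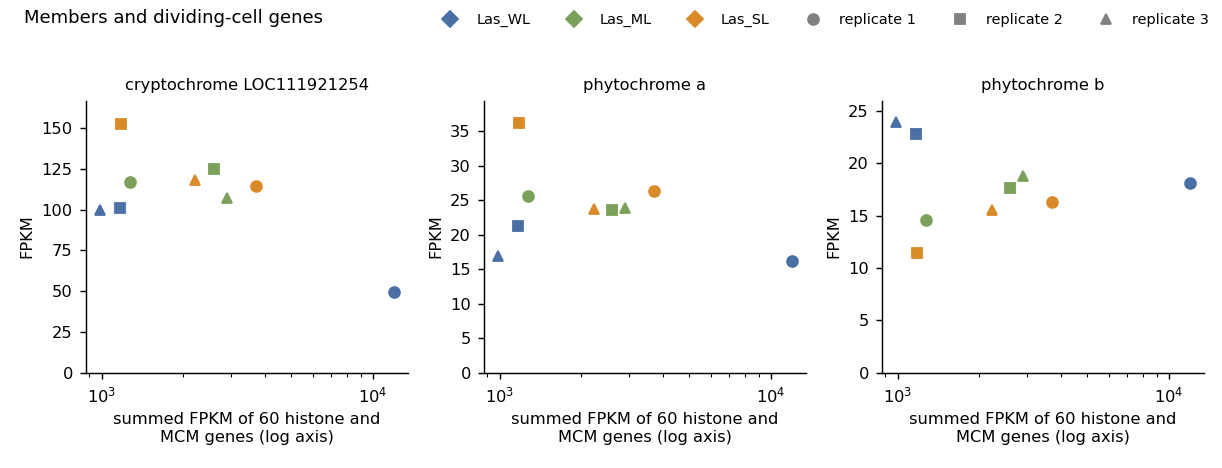
FPKM of LOC111921254, phytochrome a and phytochrome b against the summed FPKM of 60 histone and MCM genes (log axis) in each library, with colors for groups and markers for replicate numbers. Las_WL replicate 1 lies alone at 11916. Among the 4 libraries with the lowest sums, the 2 of Las_WL have the lowest phytochrome a and the highest phytochrome b, and Las_SL replicate 2 the reverse. High and medium light have 1 library each among these 4, Las_SL replicate 2 and Las_ML replicate 1, and no test was made.

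To set the phytochrome genes found by the rule against each other without the scale of a library, their FPKM values were divided within each library. This ratio was chosen after the values had been seen and is given without a test. Phytochrome a was 1.61, 3.18 and 1.53 times phytochrome b at high light, 1.76, 1.34 and 1.27 times at medium light and 0.893, 0.934 and 0.706 times at low light. Phytochrome a was thus the higher of the pair in all 6 libraries at medium and high light and the lower in all 3 libraries at low light. This describes LOC111896415 and LOC111911925 only. Further genes that KEGG orthology assigns to phytochrome A (LOC111900475, mean 4.21 FPKM) and B (LOC111906599, mean 12.5 FPKM) were left out of the ratio. The means of the ratio were 2.11 ± 0.931, 1.46 ± 0.264 and 0.845 ± 0.121, and the Las_WL libraries with few histone transcripts had 0.934 and 0.706. The highest ratio, in Las_SL replicate 2, joined the highest phytochrome a with the lowest phytochrome b level of the 9 libraries.

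The cryptochrome genes kept a nearly fixed ratio. LOC111921254 had 2.06, 2.10 and 1.94 times the FPKM of cryptochrome 1b at high light, 2.08, 2.39 and 2.20 times at medium light and 2.25, 2.03 and 2.275 times at low light. The groups overlapped, and Las_WL replicate 1, where both genes were lowest, lay within the range of the others. Of the summed FPKM of the 4 expressed receptor genes found by the rule, 46.8% to 57.2% came from LOC111921254 in each library. The mean of this sum was 234.4 ± 33.05 FPKM at high, 209.9 ± 10.6 at medium and 161.6 ± 48.7 at low light, with 105.7 in Las_WL replicate 1. The sum and the share leave out genes that only KEGG orthology assigns to these families, such as LOC111921490 with a mean of 86.8 FPKM. They therefore do not describe all receptor genes.

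**Figure D4:**
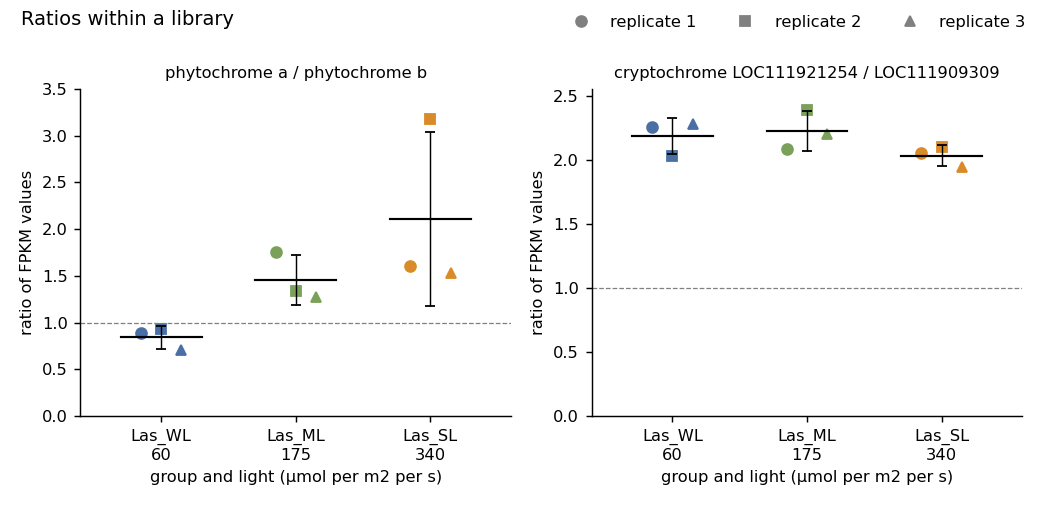
Ratios of FPKM values within a library for the phytochrome pair LOC111896415 and LOC111911925 (left) and the cryptochrome pair LOC111921254 and LOC111909309 (right), by group. Points are libraries, bars are the mean and SD of 3 libraries, and the dashed line marks equal levels. The phytochrome ratio lies below 1 in the 3 Las_WL libraries and above 1 in the other 6, and the cryptochrome ratio stays between 1.94 and 2.39.

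The members were also followed together over the 9 libraries, as a description, since the libraries share 3 groups and 1 library stands apart. On the log2(FPKM + 1) scale the cryptochrome genes had a Pearson correlation of 0.98, and 0.98 for their deviations from the group means. Both values include Las_WL replicate 1, where these genes were lowest, and the Spearman correlation was 0.88. Phytochrome a correlated with LOC111921254 and cryptochrome 1b at 0.81 and 0.83, and with phytochrome b at -0.81. For the deviations from the group means the correlation of the phytochromes was -0.47. LOC111888481 correlated with LOC111921254 at 0.77 by Pearson but at -0.03 by Spearman, in which the low values of Las_WL replicate 1 count only by rank.

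Among 20334 tested genes with a description, those most alike to phytochrome a (LOC111896415) were LOC111881197 and LOC111903867, described as WD repeat-containing proteins 26 and 48, with Pearson correlations of 0.973 and 0.965 over the 9 libraries, and LOC111894920, a universal stress protein A-like gene, with 0.966. LOC111881197 ranged from 5.95 FPKM in Las_WL replicate 1 to 10.9 in Las_SL replicate 2. Those most alike to LOC111921254 were LOC111908831, a tetratricopeptide-like helical protein gene (0.993), LOC111914471, a Bet v I domain gene (0.992), and LOC111876535, described as an LRR receptor-like kinase (0.991). All 3 had their lowest level in Las_WL replicate 1, where LOC111908831 had 49.8 FPKM against 103 to 149.8 in the other libraries.

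Descriptions miss some genes of these families, which was seen from the KEGG orthology column of the same table. It assigns 12 genes to phytochrome A or B or to cryptochrome 1 or 2, of which 7 are described by a domain, as a photolyase or as hypothetical. These assignments are not all specific, as LOC111877139 is described as a (6-4) DNA photolyase, an enzyme that repairs ultraviolet damage. Such genes were looked up after the values of the members had been seen. The 4 genes assigned to cryptochrome 2 did not share a direction, and their median log2 difference in Las_SL vs. Las_WL was -0.23. LOC111921490, annotated with photoreceptor and DNA photolyase activity, had the highest level of them, with 80.3 ± 18.6 FPKM at high, 86.5 ± 17.9 at medium and 93.5 ± 12.7 at low light. Its level was above that of cryptochrome 1b by the mean over all libraries (86.8 FPKM), and its difference in Las_SL vs. Las_WL was -0.24 (limma adjusted p = 0.607). LOC111920515, which also carries the assignment of another enzyme, had -0.23 (adjusted p = 0.714), and the photolyase gene LOC111877139 had -0.78 (adjusted p = 0.0832). LOC111883324, which is assigned to cryptochrome 2 and annotated with blue light photoreceptor activity, read 27.8, 37.6 and 30.95 FPKM at high light. It read 26.05, 23.6 and 24.6 FPKM at medium light and 13.2, 18.2 and 18.4 FPKM at low light, with no overlap between Las_WL and the other groups. Of all tested genes, 27.2% lay higher in every Las_SL than in every Las_WL library, and 18.2% lay lower in every Las_WL than in every Las_ML library. LOC111883324 was higher in Las_SL than in Las_WL by 0.92 on the log2 scale (standard error 0.175, limma adjusted p = 0.0341). This call was kept by 6 of 17 alternatives, with adjusted p-values from 0.0189 to 0.205. It was the only 1 called of the 4 genes assigned to cryptochrome 2, where 5.94% of all tested genes were called. The second gene assigned to phytochrome A, LOC111900475, had 4.44 ± 0.254 FPKM in Las_SL and 3.82 ± 0.296 in Las_WL (adjusted p = 0.430). LOC111906599, assigned to phytochrome B, had 12.8 ± 0.990 in Las_SL and 12.1 ± 3.10 in Las_WL (adjusted p = 0.797), so that the course of LOC111911925 was not seen in it, although the difference between these genes was not tested. The remaining gene assigned to phytochrome B, LOC111906600, had 0.787 FPKM at high and 0.781 at low light by the group means.

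Other genes of light signaling were counted from lists made by words in the descriptions, and the counts in Las_SL vs. Las_WL stand beside the 5.94% of all tested genes that were called. In the Las_SL vs. Las_WL comparison 0 of 9 genes of the COP, DET and SPA list, which holds repressors of light responses, passed the adjusted threshold, and their median log2 difference was 0.12. The COP9 signalosome subunit genes had their highest and the SPA genes their lowest levels in Las_WL replicate 1. SPA1-RELATED 3 (LOC111916122) had 4.16 FPKM there and 10.6 to 14.7 in the other libraries. Of the genes with a PIF word only phytochrome interacting factor 1 (LOC111881309) was tested, the other 3 being DNA helicases. It codes for a transcription factor that phytochromes inactivate in the light, and had 61.1 ± 2.08 FPKM at high, 47.6 ± 5.40 at medium and 48.4 ± 19.2 at low light, with 26.2 in Las_WL replicate 1.

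The words for HY5 and B-box proteins found 3 genes. The B-box-type zinc finger protein 22 gene (LOC111913974), of a family of transcription regulators in light responses, read 28.4, 27.0 and 28.6 FPKM at high light, 28.2, 20.5 and 21.3 FPKM at medium light and 6.80, 12.05 and 16.4 FPKM at low light. It was higher in Las_SL than in Las_WL by 1.26 on the log2 scale (standard error 0.278, limma adjusted p = 0.0417), and 6 of 17 alternatives kept this call, with adjusted p-values from 0.0198 to 0.211. The others were the clock gene late elongated hypocotyl (LOC111902035) and FAR-RED ELONGATED HYPOCOTYL 3, a transcription factor of phytochrome A signaling. Of 13 tested genes of the FAR1 and FHY3 list, related to that factor, 1 passed in Las_SL vs. Las_WL, a share near that of all genes. It was a FAR1-RELATED SEQUENCE 5-like locus that joins LOC111911029 and LOC111911031 (log2 difference 1.05, limma adjusted p = 0.0338, kept in 5 of 17 alternatives). Heme oxygenase makes the first step of phytochrome pigment synthesis, and of 4 genes described as heme oxygenase or as like it 0 passed. Their median log2 difference was 0.26. Of the 4 genes found by words for NPH3 and phototropism, a family that includes partners of phototropins, 0 passed.

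There were 6 genes described as LOV domain proteins, the domain by which phototropins and clock receptors sense blue light, and 0 of 6 passed in any comparison. LOC111880175 and LOC111921038, which the table also annotates with serine/threonine kinase activity, had the highest levels of them. LOC111880175 read 242.9, 229.2 and 226.8 FPKM at high light, 248, 263.9 and 254.7 FPKM at medium light and 112.6, 356.3 and 323.2 FPKM at low light. As for LOC111888481, the Las_WL group held both its lowest and its highest libraries. The 2 genes for the ultraviolet-B receptor UVR8 had 3.50 ± 0.581 and 28.4 ± 0.794 FPKM in Las_SL and 3.80 ± 1.82 and 29.3 ± 4.90 in Las_WL, and neither passed the test. In Las_SL vs. Las_ML and in Las_WL vs. Las_ML, 0 genes of all these lists had an adjusted p below 0.05.

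Circular RNAs were listed in a separate table of 1650 circRNAs from 1325 parental genes with 6836 back-spliced reads. None of the 7 genes was a parental gene in it. As the gene table holds 35342 genes, most genes were not parental, and 0 of 7 does not set these genes apart. The libraries held 398 to 1036 back-spliced reads each. A count of 0 in a library taken alone leaves room for an expected count of up to 3 for a gene, counting error only. The bound over all libraries together was not computed. Of the genes with KEGG assignment to these families, LOC111883324 had 1 circRNA with 1 read, in Las_ML replicate 2.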

How the data were processed

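Leaf RNA of 9 lettuce libraries was sequenced by the authors. According to the paper, reads were trimmed with Cutadapt and mapped with Bowtie2 and TopHat2 to Lsat_Salinas_v7. The submitters' processing notes name Bowtie 0.12.2, HISAT2 2.0 and StringTie 1.3.0 and a mouse genome build, and most gene identifiers have the form that StringTie writes. The authors deposited FPKM values per gene and library, without read counts of genes, so the depth behind each FPKM value is unknown. The circRNA table deposited by the authors holds whole-number counts of back-spliced reads, and 9 columns of SRPBM values were not used.

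FPKM values were tested with limma 3.58.1 (trend) in R 4.3.3 on log2(FPKM + 1), keeping 26145 of 35342 genes whose mean FPKM was 0.5 or more, with all 9 libraries in a single fit of 3 groups. A gene was called at a Benjamini-Hochberg adjusted p below 0.05. The count test of the paper needs gene counts and was not run. The paper calls the 3 replicates of a group biological, but does not state that they came from separate plants. The p-values therefore measure the spread between these samples. The test was tested on simulated data with known changes. Levels, ratios and correlations were computed with pandas 2.3.3, numpy 2.4.6 and scipy 1.17.1 under Python 3.11.15, and plots drawn with matplotlib 3.10.9.

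The members, the lists and the tests were chosen with earlier results of these data known. All 7 genes found by the rule were described, and the 6 that passed this filter were tested. Genes alike in pattern were the 3 of highest Pearson correlation for the member of highest level in each family, and no phototropin was found. Alternatives were a pseudocount of 0.1, no filter, quantile normalization, a stricter filter (mean FPKM 5 or more), rescaling without the 10 highest genes, a block for the replicate number, only the libraries of a comparison, each library left out, and a threshold on the fold change. Leaving out Las_SL replicate 2 and Las_WL replicate 1 together was chosen after seeing the data. RefSeq genes of Lsat_Salinas_v11 were used for names only. No sequences are shown.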

Additional observations from a re-analysis of the deposited data

How the results depend on the processing

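Of 306 values of single members under the 17 alternatives, 297 kept their direction and their side of the adjusted threshold. No member was called in the main fit, so keeping that side meant staying uncalled. The replicate block, the fit on only the libraries of a comparison and leaving out a library of the third group cannot change a difference here. The count of 297 is therefore not a measure of robustness. The value that gained the threshold was that of phytochrome b without Las_WL replicate 1, so that the number of members called in Las_SL vs. Las_WL ranged from 0 to 1 when single libraries were left out. It was 0 in every other alternative. The direction reversed in 8 values, none called. For LOC111888481 these were 0.00 in Las_SL vs. Las_ML without Las_ML replicate 2, 0.27 in Las_WL vs. Las_ML without Las_WL replicate 1 and also without Las_SL replicate 2 and Las_WL replicate 1, and -0.40 and -0.37 in Las_SL vs. Las_WL under the same settings. For LOC111896059 in Las_SL vs. Las_ML they were -0.06 with quantile normalization and without Las_SL replicate 3, and -0.15 without Las_ML replicate 2. With single libraries left out, LOC111888481 ranged from -0.25 to 0.00 in Las_SL vs. Las_ML, from -0.70 to 0.27 in Las_WL vs. Las_ML and from -0.40 to 0.57 in Las_SL vs. Las_WL, and LOC111896059 from -0.15 to 0.17 in Las_SL vs. Las_ML. Without Las_WL replicate 1 the median of all genes moved from 0.184 to 0.322 in Las_SL vs. Las_WL and from -0.134 to -0.259 in Las_WL vs. Las_ML.

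The number of all genes called moved more. In Las_SL vs. Las_ML it was 1, and 0 with a pseudocount of 0.1, with a mean FPKM of at least 5, with a replicate block, with the third group's libraries left out of the fit and without Las_SL replicate 2 and Las_WL replicate 1, 2 without a filter, and 0 to 11 with a library left out, the highest without Las_ML replicate 1. In Las_WL vs. Las_ML it was 0, and 2 with a pseudocount of 0.1, a mean FPKM of at least 5 or quantile normalization, 1 without a filter, 114 without the pair of libraries and 0 to 127 with a library left out, the highest without Las_WL replicate 1. In Las_SL vs. Las_WL it was 1552, and 6 with quantile normalization, 431 after rescaling, 0 with a replicate block, 1 with the third group left out of the fit, 767 with a log2 difference of at least 1 and 3968 without the pair. Leaving out Las_SL replicates 1, 2 and 3 gave 262, 8 and 0, Las_ML replicates 1, 2 and 3 gave 565, 6 and 6, and Las_WL replicates 1 and 2 gave 5652 and 11. The unadjusted p with that fold change called 373 genes in Las_SL vs. Las_ML and 594 in Las_WL vs. Las_ML. The cause of these shifts was not tested.

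The deviations of same-numbered libraries from their group means correlated between -0.519 and 0.561. Those of differently numbered libraries correlated between -0.605 and 0.573, so these values cannot decide whether the replicate numbers pair the libraries. The block changed no call of a member, but no member was called in the main fit. With a replicate block the number of members called in Las_SL vs. Las_WL was 0. Without gene counts, the counting error of the FPKM values is unknown.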
